A study of Mus musculus with 6 samples.

Results

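The nuclear genes of respiratory complexes III, IV and V were examined in hippocampal RNA of WT and TG mice. Members were the protein-coding genes of the deposited expression table whose symbol starts with Uqcr (complex III), Cox4 to Cox8 (complex IV) or Atp5 (complex V), which gave 44 of 54532 genes, 8 for complex III, 18 for complex IV and 18 for complex V. TG mice were knock-in mice made with CRISPR/Cas9 in C57BL/6N eggs and bred to C57BL/6, with the changes G82R and L85P in exon 3 of Slc1a2, the gene of the astrocytic glutamate transporter GLT-1, and WT mice were their wild-type littermates. The comparison addressed which transcripts differ in the hippocampus of mice that carry these variants. There were 3 WT mice (WT1 to WT3) and 3 TG mice (TG1 to TG3), each labelled as a separate mouse with 1 library, and their age and zygosity were not given in the sources used here. Values were FPKM, the fragments of a gene per kilobase of gene length, scaled to the reads of the library, and 3 values of a group are always given in the order of replicates 1 to 3.

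The 3 complexes are the last steps of oxidative phosphorylation in the inner mitochondrial membrane. Complex III, ubiquinol-cytochrome c reductase, hands electrons from ubiquinol to cytochrome c, complex IV, cytochrome c oxidase, passes them on to oxygen, and complex V, the ATP synthase, uses the resulting proton gradient to make ATP. Each is assembled from subunits of the mitochondrial genome and of nuclear genes, and several nuclear subunits of cytochrome c oxidase exist as isoforms of heart and skeletal muscle, lung or testis. Neurons rely heavily on this pathway to pay for ion pumping.

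The libraries held 16081281 to 18751057 reads on genes, with overlapping ranges in WT and TG mice. Slc1a2 itself had FPKM of 202, 199.5 and 177 across the WT libraries and 222, 207 and 217 across the TG libraries, with a log2 fold change of 0.16 (SE 0.09, limma adjusted p = 0.789), and FPKM per gene does not show the knock-in alleles. Hippocampal neuron markers were present in every library, with a summed FPKM of 1231 to 1397. One contrast between libraries was larger than any in the members, since 10 choroid plexus markers summed to 82.6 to 111 FPKM in WT mice and to 1335, 4178 and 92.2 FPKM in TG1 to TG3. Ttr, which encodes the transthyretin secreted by the choroid plexus, had FPKM of 73.0, 49.8 and 66.6 across the WT libraries and 1168, 3705 and 57.7 across the TG libraries, and none of the 10 markers was at 0. Marker sums of astrocytes (235 to 263 FPKM), microglia (88.4 to 116 FPKM) and endothelium (67.4 to 80.3 FPKM) overlapped between the groups. The ependyma sum (7.88 to 13.2 FPKM) overlapped too. Of its 5 markers, 3 had an unadjusted limma p under 0.05 and a log2 fold change below 0, against 2.78% of all genes tested. They were Ccdc153, Tmem212 and Rarres2, at -0.68, -0.75 and -0.41. Foxj1 and Dynlrb2 were above 0, at 0.33 and 0.10. Above 0 at that p were 1 of 5 microglia markers (Csf1r) and 1 of 5 endothelium markers (Flt1), against 3.13% of all genes.

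Of the 44 members, 42 had a mean FPKM of at least 0.1 and were tested, 8 in complex III, 17 in complex IV and 17 in complex V. The others, Cox8c (a testis isoform of cytochrome c oxidase) and a second row named Atp5o, had 0 reads in all 6 libraries, where a count of 0 allows up to 3 reads. That second Atp5o row shared 89.8% of its 50-base stretches with other genes, so most reads from it could not be assigned to it alone. No tested member passed an adjusted p of 0.05 in limma, where 0.00955% of the 20952 genes tested did, and the smallest adjusted p of a member was 0.786. At an unadjusted p under 0.05, 1 member (Cox4i2) was lower in TG mice against 2.78% of all genes, and 0 members were higher against 3.13% of all genes. By the same count with voom on the recovered reads, 0 members were lower at an unadjusted p under 0.05.

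What the members shared was a small negative difference. Of the 42, 38 had a log2 fold change (TG against WT) below 0, where 50.4% of all genes tested did, namely 8 of 8 in complex III, 13 of 17 in complex IV and 17 of 17 in complex V. The median log2 fold change was -0.17 over all members, against -0.002 over all genes tested, and it was -0.18 for complex III, -0.15 for complex IV and -0.17 for complex V. Differences between the complexes were not tested. In hippocampal tissue, fewer cells of a type and less RNA per cell cannot be told apart.

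**Figure D1:**
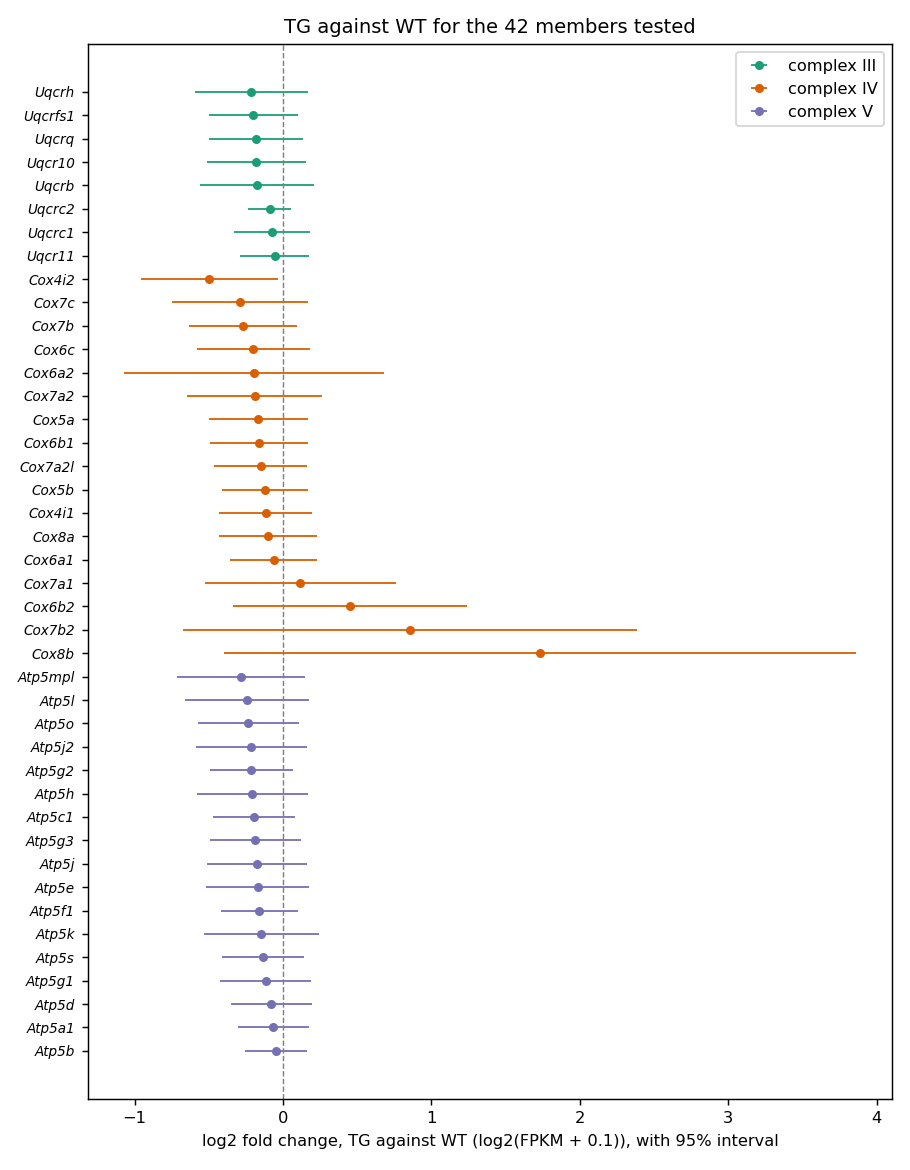
Log2 fold change of TG against WT mice for the 42 tested members, ordered by complex, as points with 95% intervals from limma on log2(FPKM + 0.1). All 8 points of complex III and all 17 of complex V lie below 0, only the interval of Cox4i2 leaves out 0, and the 4 points above 0 are low-level complex IV isoforms.

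Groups rarely lay apart. In 2 of the 42 members (Uqcrc2 and Cox4i2) every TG library was below every WT library, where 5.71% of all genes were, and in 0 members every TG library was above every WT library, where 6.35% of all genes were. Without WT2 the first count was 14 (33.3%), where 12.8% of all genes lay apart in that direction. Across the members, WT3 was the high library and TG1 the low one. Relative to the WT mean, the median over the members on the log2 scale was -0.07, -0.16 and 0.26 across the WT libraries and -0.31, -0.07 and -0.10 across the TG libraries. WT3 was the highest of the 6 libraries in 35 of 42 members (83.3%, against 25.1% of all genes tested), and TG1 was the lowest in 29 (69.0%, against 19.6%). Both held in 27 members (64.3%, against 8.66% of all genes). Summed over the members, FPKM came to 4259, 3962 and 5183 across the WT libraries and to 3755, 4242 and 4237 across the TG libraries, so that TG2 and TG3 lay between WT2 and WT1.

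**Figure D2:**
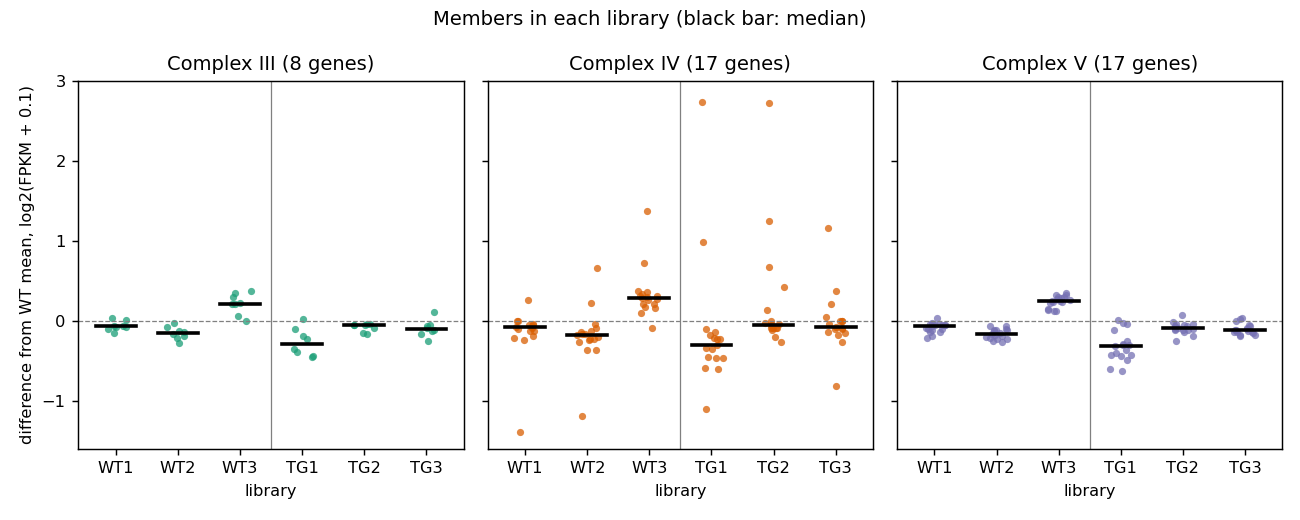
Difference of each tested member from its WT mean on log2(FPKM + 0.1) (vertical axis) in each library (horizontal axis), 1 panel per complex, with points for genes and black bars for medians. In every panel the bar of WT3 is the highest and that of TG1 the lowest, and the widely scattered points of complex IV are the low-level isoforms.

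With WT3 left out, the median of the members was -0.02 and 29 of 42 were below 0. With TG1 left out it was -0.09. With both left out, a setting chosen after the values had been seen, the median was 0.05 (0.05, 0.08 and 0.02 for complexes III, IV and V) and 33 of 42 members were above 0. Complexes III, IV and V thus had the same sign as each other in each of these settings, and that sign turned when both libraries were removed.

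**Figure D3:**
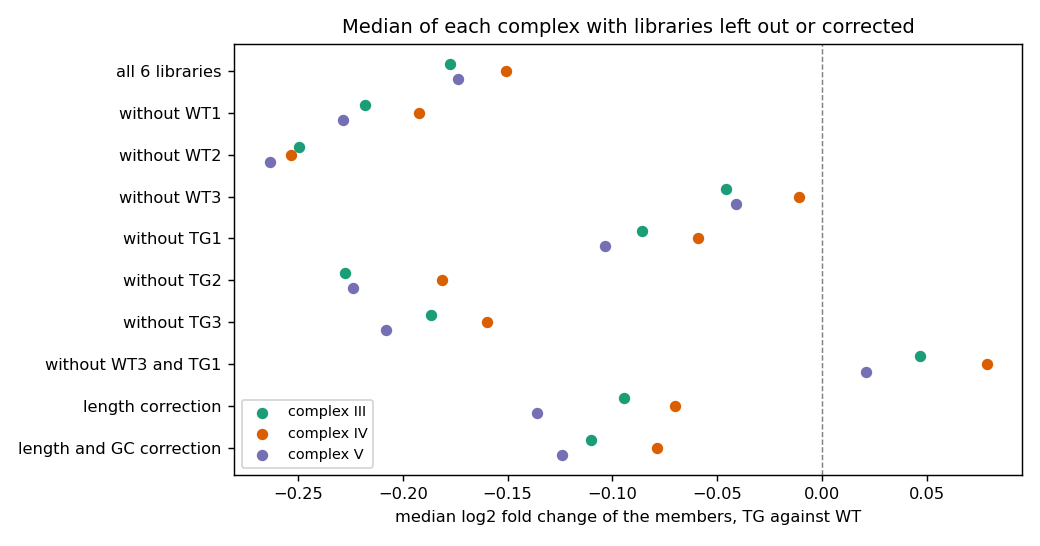
Median log2 fold change (horizontal axis) of the members of each complex. Rows are all 6 libraries, libraries left out, and each library corrected for the gene length of the table, alone or with GC content. Medians lie below 0 in every row except that without WT3 and TG1, where they are 0.05, 0.08 and 0.02.

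Transcript length moved with the same libraries. The median principal transcript (the one the annotation marks as the main isoform) was 727 bases in the members and 2975 bases in all protein-coding genes tested. Relative to the mean of the 6 libraries, the 1038 protein-coding genes with a principal transcript of up to 1000 bases had a median of 0.24 in WT3 and -0.21 in TG1 on the log2 scale, and the 14068 longer ones had -0.02 and 0.02. The members had 0.33 and -0.25. After each library was corrected for the gene length of the table and GC content, the members still had 0.24 in WT3 and -0.13 in TG1. Their median log2 fold change was then -0.11. Principal transcript length, which differs from that gene length, was not corrected for. Among the 36 members with a mean FPKM of at least 7 (a bound chosen after the values had been seen), TG1 was the lowest library in 22 of the 23 with a principal transcript of up to 1000 bases and in 6 of the 13 longer ones. Across these 36 genes, which share libraries and are not independent replicates, the difference of TG1 from the WT mean had a Pearson r of 0.53 and a Spearman rho of 0.49 with log2 transcript length, and that of WT3 had -0.39 and -0.44. Other measures moved with TG1 as well. The 6 mitochondrially encoded subunits of the 3 complexes summed to 16959, 16032 and 17286 FPKM across the WT libraries and to 12684, 16569 and 15888 FPKM across the TG libraries. Most of each sum came from mt-Co1 and mt-Cytb. The sums of 5 oligodendrocyte markers were 535, 507 and 423 FPKM across the WT libraries and 349, 474 and 511 FPKM across the TG libraries. In these markers WT3 was the lowest WT library. All 5 had a log2 fold change below 0 (median -0.23, and -0.17 without WT3 and TG1). The part of these measures in the members' difference was not tested.

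Complex III was measured through 8 genes, all between 37.0 and 172 FPKM in every library. By mean FPKM its most abundant transcript was Uqcr10, a small supernumerary subunit. It had FPKM of 140.4, 136 and 172 across the WT libraries and 109, 144 and 144 across the TG libraries. Those values overlapped between the groups, with TG1 lowest and WT3 highest, and gave a log2 fold change of -0.18 (SE 0.14, limma adjusted p = 0.789). Uqcrfs1, the Rieske iron-sulfur protein that takes the electron from ubiquinol, had FPKM of 94.4, 88.3 and 124 across the WT libraries and 88.9, 90.4 and 84.8 across the TG libraries. Here WT3 alone stood above the other 5 libraries, whose range was 84.8 to 94.4 FPKM, and the log2 fold change was -0.20 (SE 0.13, limma adjusted p = 0.789).

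The core proteins of complex III, Uqcrc1 and Uqcrc2, form its large matrix arm. Uqcrc1 had FPKM of 59.5, 55.4 and 72.2 across the WT libraries and 63.1, 55.9 and 58.0 across the TG libraries, in which TG1 was the second highest library, and a log2 fold change of -0.07 (SE 0.11, limma adjusted p = 0.874). Uqcrc2 (chromosome 7, 120635176 to 120659524, plus strand, GRCm38) had FPKM of 68.5, 65.6 and 66.9 across the WT libraries and 62.2, 64.9 and 61.9 across the TG libraries. It was the one abundant member whose groups lay apart, by a narrow gap between 64.9 FPKM in TG2 and 65.6 FPKM in WT2, with a log2 fold change of -0.09 (SE 0.06, limma adjusted p = 0.789). Uqcr11, another small subunit, was the one abundant member with its highest value in a TG library, with FPKM of 113, 107 and 118 across the WT libraries and 96.3, 109 and 122 across the TG libraries and a log2 fold change of -0.06 (SE 0.10, limma adjusted p = 0.896). The remaining genes, Uqcrb, Uqcrq and Uqcrh (the hinge protein beside cytochrome c1), had log2 fold changes between -0.21 and -0.18, and in all of them WT3 was highest and TG1 lowest.

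Complex IV held the most abundant members. Cox8a, the ubiquitous isoform of the smallest subunit, had FPKM of 700.3, 626 and 784 across the WT libraries and 569.9, 697 and 701 across the TG libraries, which ranked it 21 among all protein-coding genes. Its groups overlapped, with TG1 lowest, and the log2 fold change was -0.10 (SE 0.14, limma adjusted p = 0.862). Cox6a1, the liver-type isoform of subunit 6a, had FPKM of 549, 527 and 669 across the WT libraries and 523, 560.2 and 579 across the TG libraries and a log2 fold change of -0.06 (SE 0.13, limma adjusted p = 0.907). Cox4i1, the general isoform of the regulatory subunit 4, had FPKM of 287, 254 and 359.6 across the WT libraries and 263, 280.1 and 278 across the TG libraries. Its lowest library was WT2 rather than TG1, and the log2 fold change was -0.12 (SE 0.13, limma adjusted p = 0.832).

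Cox6b1, which joins the oxidase monomers on the intermembrane side, had FPKM of 168, 152 and 222 across the WT libraries and 152, 168 and 158 across the TG libraries, where WT3 stood above the other 5 libraries, and a log2 fold change of -0.17 (SE 0.14, limma adjusted p = 0.789). Cox7a2, the general isoform of subunit 7a, had FPKM of 108, 84.3 and 139 across the WT libraries and 78.8, 105 and 103 across the TG libraries. Cox7a2l is known from other work as a factor that links complexes III and IV into supercomplexes, which was not examined in these mice. Its FPKM were 111, 103 and 147 across the WT libraries and 103, 112 and 107 across the TG libraries. For both genes WT3 was highest and TG1 lowest, with log2 fold changes of -0.19 and -0.15. Cox7b, the only member on the X chromosome, had FPKM of 72.0, 66.3 and 85.8 across the WT libraries and 49.3, 68.7 and 69.1 across the TG libraries, and a log2 fold change of -0.27 (SE 0.15, limma adjusted p = 0.789). TG1 was well below the other 5 libraries in this gene. The remaining abundant genes (Cox5a, Cox5b, Cox6c and Cox7c) had WT3 highest and TG1 lowest, with log2 fold changes from -0.29 (Cox7c) to -0.12 (Cox5b).

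In complex V, WT3 was the highest library in 17 of 17 tested genes, and TG1 the lowest in 13. The catalytic head is made of alternating alpha and beta subunits, encoded by Atp5a1 and Atp5b. Atp5a1 had FPKM of 302, 291 and 348 across the WT libraries and 315, 298 and 284 across the TG libraries and a log2 fold change of -0.07 (SE 0.10, limma adjusted p = 0.877). TG1 was here the second highest library. Atp5b had FPKM of 271, 270.4 and 309 across the WT libraries and 274, 273 and 273 across the TG libraries, in which the 3 TG libraries differed by an SD of 0.730 FPKM, and a log2 fold change of -0.05 (SE 0.09, limma adjusted p = 0.897). These were the smallest differences among the 17 genes of the complex together with Atp5d, the delta subunit of the central stalk, whose log2 fold change was -0.08.

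Subunit c, which forms the rotating ring in the membrane, is encoded by 3 genes that give the same mature protein. Atp5g3 had FPKM of 83.3, 82.2 and 112 across the WT libraries and 74.0, 84.6 and 82.7 across the TG libraries. Atp5g2 had FPKM of 43.2, 40.8 and 48.7 across the WT libraries and 32.6, 43.5 and 38.7 across the TG libraries. The third gene, Atp5g1, had FPKM of 22.6, 20.8 and 27.4 across the WT libraries and 19.1, 24.7 and 21.4 across the TG libraries. In all 3 genes WT3 was the highest library and TG1 the lowest. Atp5g2 had the smallest p of complex V, with a log2 fold change of -0.21 (SE 0.12, limma adjusted p = 0.789) and an unadjusted p of 0.114, and 38.3% of its 50-base stretches also occurred in other genes. Of the summed FPKM of the 3 genes, Atp5g3 took 57.5% ± 1.82 in WT and 57.4% ± 1.81 in TG mice (mean ± SD, n = 3 each), Atp5g2 took 27.8% ± 1.62 and 27.2% ± 1.28, and Atp5g1 took 14.7% ± 0.376 and 15.4% ± 0.618. Exact two-sided permutation tests gave p = 1 for Atp5g3, 0.8 for Atp5g2 and 0.2 for Atp5g1, where 0.1 is the smallest p that 3 against 3 libraries allow. The share of Atp5g1 was higher in TG mice by 0.706 percentage points, and by 0.355 to 0.936 points with any 1 library left out. These shares rest on the gene length of the table and would differ with another length. By principal transcript length the mean levels were 261 for Atp5g3, 94.5 for Atp5g2 and 23.6 for Atp5g1, against mean FPKM of 86.4, 41.2 and 22.7.

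The other genes of the ATP synthase belong to the central stalk (Atp5c1, Atp5e), the peripheral stalk (Atp5f1, Atp5h, Atp5j, Atp5o) and the membrane part (Atp5j2, Atp5k, Atp5l, Atp5mpl), with Atp5s as coupling factor B. Their log2 fold changes ran from -0.29 for Atp5mpl to -0.14 for Atp5s. Atp5mpl, a small membrane proteolipid, had FPKM of 43.1, 38.2 and 54.0 across the WT libraries and 28.9, 37.5 and 45.2 across the TG libraries, where TG1 was the lowest library and TG3 lay above WT1. Atp5s, the least abundant gene of the complex, had FPKM of 7.35, 7.99 and 10.01 across the WT libraries and 7.75, 7.36 and 7.74 across the TG libraries, and here TG1 was not the lowest. In these stalk, membrane and coupling genes WT3 was the highest library throughout, and TG1 the lowest in all but Atp5s.

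Levels are per length and depend on which length is used. By the gene length of the table, the median FPKM was 74.7 for complex III, 68.6 for complex IV and 44.2 for complex V. When the same reads were divided by the length of the principal transcript (an alternative added after the data had been seen), the medians were 123, 122 and 131 on that scale, and complex V was no longer the lowest. The gene that moved most was Atp5l, from 10.7 to 127, since its table length is 6443 bases and its principal transcript 544. Cox6c went from 52.3 to 253 and Atp5e from 44.2 to 184. By mean FPKM the order began with Cox8a (679.7), Cox6a1 (568), Atp5a1 (306), Cox4i1 (287), Atp5b (278) and Cox6b1 (170.04). On that scale Cox8a exceeded Cox6a1 in 6 of 6 libraries, Atp5a1 exceeded Cox4i1 in 5 and Cox4i1 exceeded Atp5b in 4. Atp5a1, Cox4i1 and Atp5b were thus not separated in every mouse. With principal transcript length the order was Cox6a1 (698), Cox8a (674), Atp5b (616), Cox4i1 (582) and Atp5a1 (389). Over the 6 libraries Atp5a1 then ranged from 361 to 441, Cox4i1 from 514 to 729 and Atp5b from 598 to 682. Among all protein-coding genes, 5 members were in the 100 most abundant and 18 in the 500 most abundant. The balance between the complexes was steady, with complex III at 15.3% to 15.8%, complex IV at 52.2% to 54.1% and complex V at 30.4% to 32.5% of the members' summed FPKM over the 6 libraries.

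**Figure D4:**
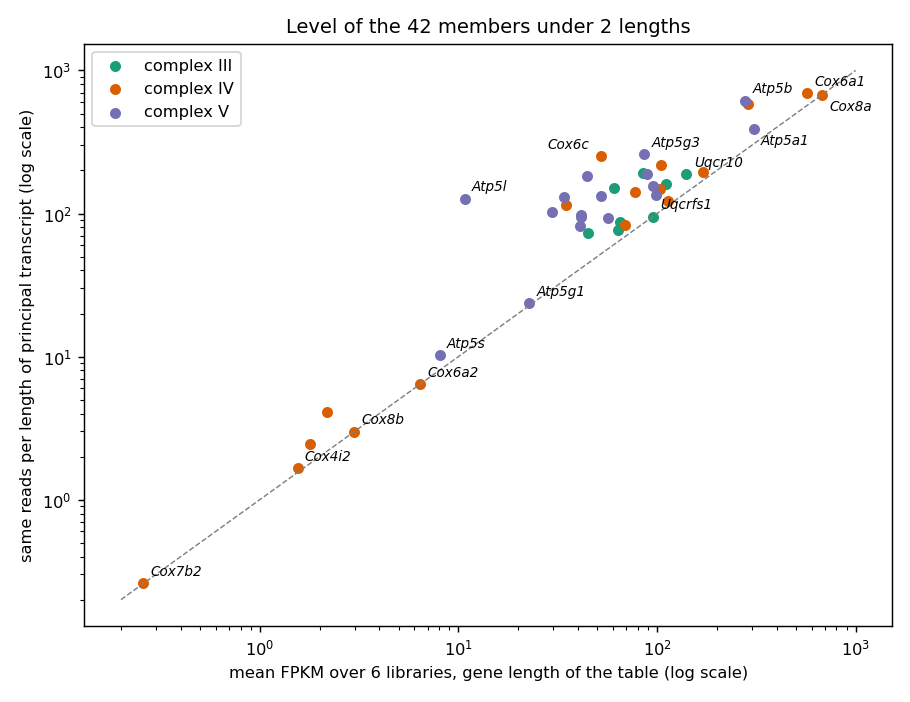
Mean FPKM over 6 libraries by the gene length of the table (horizontal axis, log scale) against the level of the same reads by principal transcript length (vertical axis, log scale) for the 42 tested members, coloured by complex, with a dashed line of equality. Atp5l stands farthest above the line (10.7 against 127), and the 6 low-level complex IV isoforms lie at the lower left.

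The tissue isoforms of cytochrome c oxidase were far below their ubiquitous partners, and they held the only member with an unadjusted p under 0.05. Cox4i2, the hypoxia-responsive isoform of subunit 4 known from lung and from mural cells of brain vessels (chromosome 2, 152754173 to 152765037, plus strand, GRCm38), had FPKM of 1.65, 2.12 and 1.69 across the WT libraries and 1.28, 1.56 and 0.984 across the TG libraries. All 3 TG values were below all 3 WT values, with a log2 fold change of -0.50 (SE 0.20, limma adjusted p = 0.786) and an unadjusted p of 0.0380. Without TG2 the unadjusted p stayed under 0.05, and without any other single library or with voom it did not. The values rested on 24, 27 and 25 reads across the WT libraries and 16, 22 and 14 reads across the TG libraries. Mural cell markers (7 genes, none at 0) summed to 68.9 to 97.9 FPKM in WT mice and 67.0 to 94.7 FPKM in TG mice, and their part in the value of Cox4i2 was not tested. As a share of Cox4i1 and Cox4i2 together, Cox4i2 took 0.623% ± 0.186 in WT and 0.463% ± 0.102 in TG mice (mean ± SD, n = 3 each), and these shares overlapped (exact permutation test, p = 0.3).

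Cox8b, the heart and skeletal muscle isoform of the smallest subunit (chromosome 7, 140898945 to 140900446, minus strand, GRCm38), had FPKM of 0.3005, 1.55 and 1.63 across the WT libraries and 6.85, 6.82 and 0.769 across the TG libraries. TG1 and TG2 stood above all WT libraries and TG3 lay within them, with a log2 fold change of 1.73 (SE 0.91, limma adjusted p = 0.789) and an unadjusted p of 0.0967. Reads numbered 2, 9 and 11 across the WT libraries and 39, 44 and 5 across the TG libraries. TG1 and TG2 were also the libraries with choroid plexus marker sums of 1335 and 4178 FPKM, against 92.2 in TG3. Of the 10 markers, 6 had a log2 fold change above 0 with an unadjusted limma p under 0.05, against 3.13% of all genes tested. After adjustment 0 passed. Striated muscle markers (8 genes, Actc1 at 0) summed to 5.39 to 7.21 FPKM in WT mice and 5.03 to 5.56 FPKM in TG mice. The part of either cell type in the Cox8b values was not tested.

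Cox6a2 and Cox7a1 are the other heart and skeletal muscle isoforms. Cox6a2 had FPKM of 5.49, 5.92 and 8.40 across the WT libraries and 2.97, 7.14 and 8.47 across the TG libraries, so the groups overlapped and TG1 alone was low, with 32 reads against 65 to 107 in the others. Cox7a1 had FPKM of 2.02, 1.27 and 1.80 across the WT libraries and 1.42, 2.71 and 1.55 across the TG libraries, with TG2 highest and WT2 lowest, on 11 to 26 reads. Their log2 fold changes were -0.20 and 0.12, with SE of 0.37 and 0.27. Without WT3 and TG1, Cox6a2 had a log2 fold change of 0.44 and was the 1 member above 0 with an unadjusted p under 0.05. Its limma adjusted p in that setting was 0.889.

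Cox6b2 and Cox7b2 are isoforms known from testis. Cox6b2 had FPKM of 1.46, 1.68 and 2.07 across the WT libraries and 1.60, 4.23 and 2.00 across the TG libraries, in which TG2 stood alone above the other 5 libraries and TG1 and TG3 lay among the WT values. Cox7b2 had FPKM of 0.0998, 0 and 0.493 across the WT libraries and 0.350, 0.206 and 0.409 across the TG libraries, on 0 to 5 reads per library, with a log2 fold change of 0.85 (SE 0.65, limma adjusted p = 0.789). Without WT3 its unadjusted p was under 0.05, and the smallest limma adjusted p of any member in that setting was 0.984. Testis markers (5 genes, Tnp1, Prm2 and Pgk2 at 0) summed to 0.603 to 0.997 FPKM in WT mice and 1.08 to 1.45 FPKM in TG mice, and their part was not tested. Over the 9 isoform and subunit c shares compared, exact two-sided permutation tests gave p from 0.2 to 1 and adjusted p from 0.54 to 1. All 9 shares rest on the gene length of the table.

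**Figure D5:**
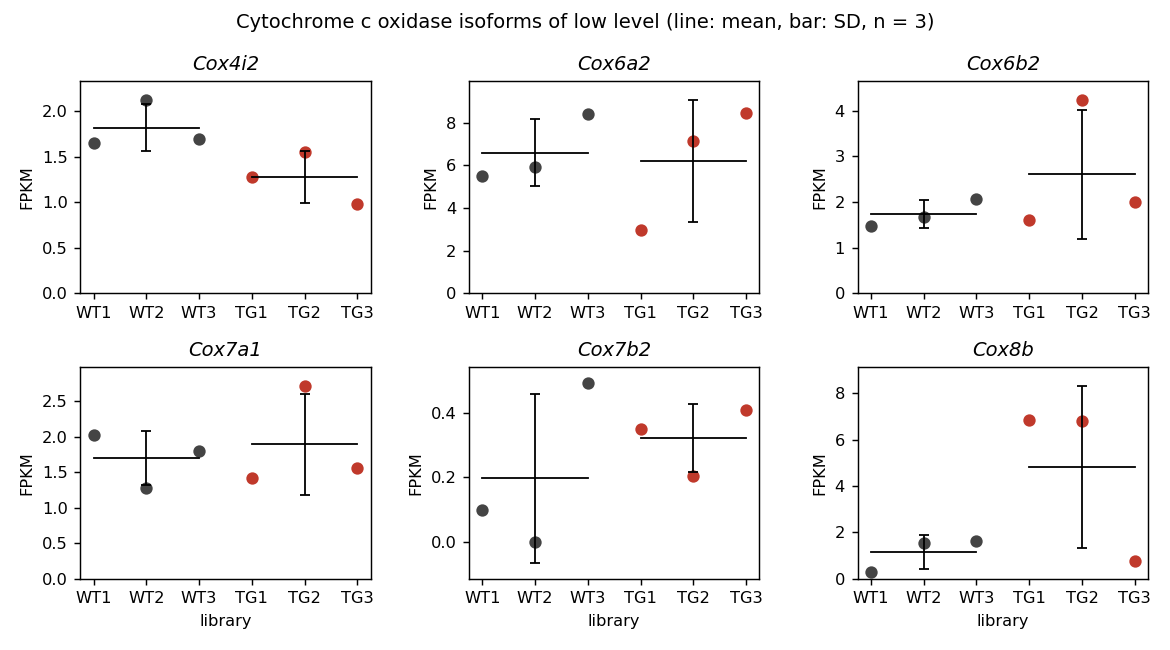
FPKM (vertical axes) of 6 low-level cytochrome c oxidase isoforms in each library (horizontal axes), with WT points in grey and TG points in red, group means as lines and SD as bars (n = 3). Cox8b is at 6.85 and 6.82 in TG1 and TG2 and at most 1.63 elsewhere, and Cox4i2 is the one panel in which all TG points lie below all WT points.

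The upstream sequence of the members was searched for letters bound by factors known to act on respiratory genes. RefSeq windows (GRCm38.p6, 250 bases before to 50 after a start site) were matched for 31 of the 44 members. The core of the NRF1 motif, GCATGCGC, occurred on either strand in 6 of 31 windows (19.4%), against 3.75% of all 16494 protein-coding windows and 4.94% of those of tested genes. The GABP motif, CCGGAAG, occurred in 9 (29.0%), against 12.3% and 16.2%, and the YY1 motif, AAGATGGC, in 1 (3.23%), against 3.27% and 4.18%. Any of the 3 occurred in 23.2% of the windows of tested genes and in 12 of 27 members with a mean FPKM of at least 7. Of the 4 low-level isoforms with a window (Cox6b2, Cox7a1, Cox7b2 and Cox8b), 0 held any of the 3. So few windows cannot set these isoforms apart from the share of tested genes. The NRF1 core can overlap its own reverse complement, and such a pair was counted once per window. A match of letters is a description and not a site of binding.

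Upstream stretches of 1 gene of each complex, of Atp5l (whose stretch holds 2 motifs) and of Cox8b (whose window holds 0) follow. Some windows hold further matches outside the stretch printed. Uqcr11 has an NRF1 core 4 bases before the start, Cox6a1 a GABP match 16 bases before it, and Atp5l another GABP match 24 bases after it. The abundant members shown were picked for their matches, so the stretches do not compare abundant members with low-level isoforms. All are on the minus strand, are printed 5′ to 3′ along the gene, lie before both the RefSeq start and the 5′ end of the gene in the table, and have motif matches on either strand in capitals. Their positions are chr10:80406831-80406931 (Uqcr11), chr5:115349018-115349158 (Cox6a1), chr2:174464161-174464241 (Atp5e), chr9:44920932-44920992 (Atp5l) and chr7:140900447-140900566 (Cox8b).
Uqcr11: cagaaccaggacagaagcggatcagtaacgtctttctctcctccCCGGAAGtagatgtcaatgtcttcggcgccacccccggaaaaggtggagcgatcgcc
Cox6a1: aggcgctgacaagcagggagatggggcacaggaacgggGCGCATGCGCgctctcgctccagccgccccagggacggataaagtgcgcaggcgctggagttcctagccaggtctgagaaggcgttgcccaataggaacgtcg
Atp5e: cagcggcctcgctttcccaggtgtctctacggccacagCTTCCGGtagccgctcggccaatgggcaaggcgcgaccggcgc
Atp5l: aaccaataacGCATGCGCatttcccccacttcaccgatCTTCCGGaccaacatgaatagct
Cox8b: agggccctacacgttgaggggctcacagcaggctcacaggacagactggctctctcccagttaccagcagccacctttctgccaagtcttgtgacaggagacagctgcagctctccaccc

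In these stretches the GABP letters stood 66 bases before the start in Uqcr11 and 102 bases before it in Atp5e, the NRF1 core began 162 bases before the start in Cox6a1, and Atp5l held them at 212 and 240 bases. Regulators of this gene programme were described beside them. Of 8 such genes, 3 had a log2 fold change below 0, and the median was 0.09. That median was 0.05 with the length correction and 0.07 with the length and GC correction. Above 0 with an unadjusted p under 0.05 was 1 of the 8, against 3.13% of all genes. That 1 was Esrra, the nuclear receptor ERR alpha, with FPKM of 21.2, 20.48 and 21.2 across the WT libraries and 25.2, 22.7 and 24.4 across the TG libraries, and a log2 fold change of 0.20 (SE 0.07, limma adjusted p = 0.786). In 4 of the 8 (Esrra, Nrf1, Yy1 and Ppargc1b) all TG values were above all WT values, where 6.35% of all genes were. For Ppargc1b the gap was narrow, between 2.67 FPKM in WT2 and 2.68 FPKM in TG2, and WT3 was low at 1.23 FPKM. Nrf1, 1 of the factors whose motif was searched, had FPKM of 1.65, 1.51 and 1.66 across the WT libraries and 1.88, 1.72 and 1.88 across the TG libraries, and a log2 fold change of 0.18 (SE 0.12, limma adjusted p = 0.789). Yy1, another of them, had FPKM of 16.4, 15.9 and 15.9 across the WT libraries and 18.1, 17.0 and 16.9 across the TG libraries, and a log2 fold change of 0.11 (SE 0.06, limma adjusted p = 0.789). Gabpa, the DNA-binding subunit of GABP, had overlapping groups and a log2 fold change of -0.01 (SE 0.10, limma adjusted p = 0.986).

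Among the other steps of oxidative phosphorylation, complex I had the same high and low libraries. Of 36 nuclear genes of complex I, 36 had a log2 fold change below 0, with a median of -0.18, and WT3 was the highest library in 36 of them and TG1 the lowest in 27. Ndufa2 was the most abundant, with FPKM of 116, 100.3 and 141 across the WT libraries and 90.5, 103 and 115 across the TG libraries. Ndufb6 had the smallest p, with FPKM of 62.3, 57.2 and 65.4 across the WT libraries and 42.8, 55.3 and 51.6 across the TG libraries, TG below WT in all libraries and a log2 fold change of -0.31 (SE 0.11, limma adjusted p = 0.786). With an unadjusted p under 0.05, 2 of the 36 lay below 0, against 2.78% of all genes. Without WT3 and TG1 the median of complex I was 0.01.

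Complex II has no mitochondrially encoded subunit. Its 4 genes had a median of -0.06, with Sdha, the flavoprotein, at FPKM of 102, 99.0 and 111 across the WT libraries and 103, 99.6 and 100.4 across the TG libraries, and Sdhb at FPKM of 51.8, 46.7 and 64.1 across the WT libraries and 47.2, 48.3 and 47.3 across the TG libraries. In none of the 4 was TG1 the lowest library, and in all 4 WT3 was the highest. Cyc1 (cytochrome c1, a catalytic subunit of complex III that the choice by symbol leaves out) and Cycs (cytochrome c, the carrier from complex III to complex IV) had log2 fold changes of -0.08 and -0.18. The 6 mitochondrially encoded subunits had a median of -0.18. It was -0.03 with the length and GC correction, and -0.33 to -0.06 with 1 library left out. Their levels were very unequal, and mt-Atp8 rested on 7 to 58 reads per library. Of these, 1 (mt-Co3) lay below 0 with an unadjusted p under 0.05, against 2.78% of all genes. It had FPKM of 74.9, 73.9 and 69.8 across the WT libraries and 36.5, 58.0 and 44.2 across the TG libraries. Its log2 fold change was -0.68 (SE 0.16, limma adjusted p = 0.786). The most abundant, mt-Co1, had FPKM of 8238 to 10845 over the 6 libraries, far above mt-Co3, and a log2 fold change of -0.13.

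Assembly factors were also described by count. For complex III, 6 of 6 were below 0 (median -0.14), with Uqcc2 the most abundant at FPKM of 57.7, 56.0 and 60.2 across the WT libraries and 37.9, 52.1 and 60.1 across the TG libraries and Bcs1l, which inserts the Rieske protein, at a log2 fold change of -0.30. For complex IV, 14 of 19 tested were below 0 (median -0.09), and Sco2 and Pet117 were at 0 in all libraries. This list holds Ndufa4, a subunit of the oxidase despite its name, with FPKM of 127, 111 and 148 across the WT libraries and 88.6, 120.4 and 120.2 across the TG libraries, and Pet100, with a log2 fold change of -0.32. For complex V, 6 of 7 were below 0 (median -0.17), with Usmg5, a small ATP synthase protein, at FPKM of 381, 315 and 473 across the WT libraries and 254, 336 and 379 across the TG libraries and Fmc1 at a log2 fold change of -0.26. In none of these 3 lists did a gene pass an unadjusted p of 0.05 in limma.

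The citrate cycle and the carriers had medians between -0.11 and -0.07. Of 11 citrate cycle genes, 7 were below 0 with a median of -0.07. Idh3g, a subunit of isocitrate dehydrogenase, had the smallest p, with a log2 fold change of -0.23. Of 8 carrier and import genes, 6 were below 0 with a median of -0.11, with Slc25a4, the ADP/ATP carrier, at FPKM of 250.4, 238 and 291 across the WT libraries and 227, 229.5 and 239.6 across the TG libraries and Vdac3 at a log2 fold change of -0.20. In 0 of these genes was the unadjusted p of limma under 0.05.

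Members were spread over 18 chromosomes, and few were neighbours. Cox6b1 and Cox7a1 lay 431 kb apart on chromosome 7 and Uqcr11 and Atp5d lay 257 kb apart on chromosome 10. Of the 42 tested members, 16 shared no 50-base stretch with another gene and 10 shared over 10% of theirs, with Atp5o (41.6%), Atp5g2 (38.3%) and Uqcrb (25.5%) the highest, so the counts of these are less certain. The 36 members with a mean FPKM of at least 7 rested on 250 to 24481 reads in each library, and the 6 others on 0 to 107.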

How the data were processed

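The authors counted reads per gene with HTSeq and deposited FPKM, from gene length and read counts, for each library without pooling. GRCm38 (mm10) is named in the submitters' processing notes, and the aligner and the use of strand are not given in the sources used here. The paper names Trizol and a NEBNext kit, and the labels an RNeasy and a SMARTer kit. The reads behind each FPKM were recovered as whole multiples of 1 step per library (100% of values, tolerance 0.05).

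Genes whose mean FPKM reached 0.1 (20952) were compared on log2(FPKM + 0.1), which understates changes of low genes, with limma 3.58.1 in R 4.3.3 (lmFit, eBayes with trend, no covariate or block, two-sided) and Benjamini-Hochberg adjustment at 0.05. At the depth reached, 3 reads on 1 kb were 0.160 to 0.190 FPKM, which covers counting error only. Shares were compared by exact permutation tests (scipy 1.17.1, Python 3.11.15).

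Members and gene lists were chosen with earlier results of these data known. Named members were, per complex, the most abundant and that with the smallest p in each direction, those with an unadjusted p under 0.05 or a mean FPKM under 1, isoform pairs, subunit c genes, core subunits and Cox7a2l, and in each list the most abundant and the smallest-p gene. The result of 1 gene so named is not reported here. Other genes given with values were singled out after these were seen. Alternatives covered the pseudocount, filter, biotype, variance trend, quantile normalization, voom, length and GC correction, a replicate block and left-out libraries. Both corrections used the gene length of the table.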

Additional observations from a re-analysis of the deposited data

How the results depend on the processing

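Over the alternatives run, the 22 named members with a fit gave 439 values, and none was called (smallest limma adjusted p 0.636). Of these values, 418 kept their direction and 21 changed sign. Alternatives of the filter, biotype, variance trend and replicate block leave the log2 fold change itself unchanged. Their values could not change sign, so the 418 is not a count of independent agreement. All genes at an adjusted p under 0.05 numbered 2, against 0 with a pseudocount of 0.01 or 1, with no filter, with protein-coding genes alone, with voom, with the length or the length and GC correction and without WT3 and TG1, 1 with a mean FPKM of at least 1, 9 without the trend, and 0 to 6 with 1 library left out (6 without TG1). Members lower at an unadjusted p under 0.05 numbered 0 with voom, with either correction and without WT3 and TG1, and 0 to 2 with 1 library left out, where leaving out TG2 gave Atp5g2 and Cox4i2 and leaving out any of the other 5 lost Cox4i2. Members higher numbered 1 without WT3 and TG1 (Cox6a2), and 0 to 1 with 1 library left out, being Cox7b2 without WT3 and Cox8b without TG3. No share of all genes at an unadjusted p under 0.05 is given here for these settings, so these counts lack a comparison. Members with all TG below all WT numbered 1 with quantile normalization and with either correction, settings for which no share of all genes is given here. With 1 library left out they numbered 2 to 14. Without WT2 there were 14 (33.3%, against 12.8% of all genes). Without any other library they were 4.76% to 7.14% of the members, against 9.19% to 12.1% of all genes. Members with all TG above all WT numbered 11 (26.2%) without WT3 and TG1, where 16.1% of all genes lay apart in that direction. With 1 library left out they numbered 0 to 2. Without WT3 there were 2 (4.76%, against 9.52% of all genes), and without TG3 there was 1 (2.38%, against 11%).

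The median log2 fold change lay between -0.25 and -0.02 with 1 library left out (complex III -0.25 to -0.05, IV -0.25 to -0.01, V -0.26 to -0.04), and without WT3 and TG1 it was 0.047 (III 0.047, IV 0.079, V 0.021). In that setting complex I had 0.0090 and the complex IV assembly factors 0.020, and log2 fold changes were 0.012 for Atp5b, 0.085 for Atp5g1, 0.016 for Atp5g3, 0.048 for Cox4i1, 0.083 for Cox6a1, 0.44 for Cox6a2, 0.025 for Cox6b1, 0.12 for Cox7a2, 0.033 for Cox7a2l, 0.079 for Cox8a and 0.059 for Uqcr10. Cox6a1 had 0.022 with the length correction. With 1 library left out, ranges were -0.12 to 0.011 for Atp5a1, -0.081 to 0.014 for Atp5b, -0.23 to 0.020 for Cox4i1, -0.13 to 0.042 for Cox6a1, -0.48 to 0.26 for Cox6a2, -0.16 to 0.29 for Cox7a1, -0.25 to 0.0019 for Cox7a2l, -0.15 to 0.038 for Uqcrc1, -0.13 to 0.0028 for complex II and -0.12 to 0.0016 for the citrate cycle. The share differences ranged from -0.202 to 0.236 percentage points for Cox6a2, from -1.50 to 0.0308 for Atp5g2 and from -0.939 to 0.888 for Atp5g3. The cause of these changes was not tested.

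Replicate numbers are not stated to pair the mice. Correlations of deviations between mice of the same number were 0.01, 0.04 and 0.003 over all genes and -0.64, 0.64 and -0.13 over the members. These values cannot show whether mice were paired. With the replicate block the median was -0.17, with 1 member lower at an unadjusted p under 0.05 and 0 genes at an adjusted p under 0.05. Depth limits Cox7b2 and Cox8b most, at 0 to 5 and 2 to 44 reads per library.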
